A study of Mus musculus with 11 samples.

Results

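Cohesin peaks at 3 imprinted loci were mapped in MEFs (mouse embryonic fibroblasts, connective tissue cells taken straight from embryos into culture) that were wild type or lacked the cohesin subunit SA1. The loci were taken as fixed windows of the mouse build mm9. They are the H19-Igf2 window at chr7:149700000-149900000, the Dlk1-Meg3 window at chr12:110650000-110850000 and the Igf2r window at chr17:12850000-13000000. Every peak of the 8 immunoprecipitation lists that lay within a window was a member, which gave 82 of 162241 peaks. The windows were set by position and no measured value entered that rule, though earlier results of these data were known. Of the 82 peaks, 37 lay in the H19-Igf2 window, 18 in the Dlk1-Meg3 window and 27 in the Igf2r window. The lists give positions without gene names, and an mm9 annotation was not used here, so no peak was placed in a gene, exon or promoter.

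Chromatin immunoprecipitation followed by sequencing was done with antibodies against SA1, SA2, SMC1 and SMC3. All cells were untreated fibroblasts of C57BL/6 x 129 Sv background taken at E12.5, a day of mid-gestation, and were either wild type or SA1-null. The labels name no SA1 allele and do not say how many embryos or cultures were used. Each antibody gave 1 list per genotype, and the SA1-null SMC1 list stands for 2 samples together. With 1 list per group there is no spread between replicates, so no difference between genotypes could be tested. Intervals given with counts and shares below are exact 95% intervals and cover counting error only. They treat peaks and sites as independent, although many are neighbours at the same locus. They are therefore likely too narrow, and a genome value inside or outside one is a description, not a test. Sequencing depth is unknown, and the lists hold no peak heights. Over the whole genome the ring lists of SA1-null cells were 1.96 and 2.24 times as long as the wild-type ones, for SMC1 and SMC3 in that order.

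Cohesin is a ring around DNA built from SMC1, SMC3 and a kleisin, with either SA1 or SA2 attached. It holds sister chromatids together and, where it meets the DNA-binding protein CTCF, anchors chromatin loops. Imprinted genes are expressed from 1 parental chromosome. H19, a maternally expressed non-coding RNA, and Igf2, a paternally expressed growth factor, share enhancers and are separated by a control region with CTCF sites. Dlk1 encodes a paternally expressed transmembrane protein of the Notch ligand family, and Meg3 is a maternally expressed non-coding RNA of the same cluster. Igf2r encodes the maternally expressed receptor that clears IGF2, and its paternal silencing requires the antisense RNA Airn. In the RefSeq gene table of GRCm38.p6, a later build used here for names alone, H19 and Igf2 have Nctc1 and Ins2 as outer neighbours. In the same table Meg3 is followed by Rtl1, and Igf2r overlaps Airn.

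The sequence of the peaks themselves was not analysed here. Because cohesin is known to gather at CTCF sites, the 250 bases upstream of the start sites of the member genes were searched for AGGNGGC, part of the CTCF core motif, on both strands. These bases came from RefSeq (GRCm38.p6). The promoter set used here matched 4 of the 5 genes, Igf2, Dlk1, Meg3 and Igf2r, with 8 start sites. The letters occurred upstream of 3 of the 8 start sites, against 25.0% of 32851 start sites of all genes. This form was 1 of 8 partial forms of the motif that were tried, and it was kept after the matches of all 8 had been seen. The other 7 matched upstream of 0 to 3 of the 8 start sites, against 2.45 to 47.6% of all start sites, and which genes matched changed with the form. GNGGCAG, for example, matched upstream of 3 start sites, of Dlk1, Igf2 and Meg3, against 25.3% of all. The 3 sequences are shown because they belong to the genes whose windows were mapped. Capitals mark each match. A match describes letters and is no evidence of binding, and whether a cohesin peak lay at any of them was not determined, since the peaks are on mm9.
Igf2 upstream sequence at chr7:142658805-142659054 (GRCm38.p6, minus strand): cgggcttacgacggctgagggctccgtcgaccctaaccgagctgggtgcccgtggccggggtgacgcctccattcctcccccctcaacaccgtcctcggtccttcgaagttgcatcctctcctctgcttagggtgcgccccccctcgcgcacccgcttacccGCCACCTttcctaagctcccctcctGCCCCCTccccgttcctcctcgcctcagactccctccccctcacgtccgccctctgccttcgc
Igf2 upstream sequence at chr7:142657497-142657746 (GRCm38.p6, minus strand): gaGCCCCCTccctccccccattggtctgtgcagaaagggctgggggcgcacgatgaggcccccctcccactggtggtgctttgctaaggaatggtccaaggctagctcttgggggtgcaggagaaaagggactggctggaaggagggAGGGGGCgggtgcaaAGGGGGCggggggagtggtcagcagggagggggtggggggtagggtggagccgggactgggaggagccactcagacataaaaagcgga
Igf2r upstream sequence at chr17:12769707-12769956 (GRCm38.p6, minus strand): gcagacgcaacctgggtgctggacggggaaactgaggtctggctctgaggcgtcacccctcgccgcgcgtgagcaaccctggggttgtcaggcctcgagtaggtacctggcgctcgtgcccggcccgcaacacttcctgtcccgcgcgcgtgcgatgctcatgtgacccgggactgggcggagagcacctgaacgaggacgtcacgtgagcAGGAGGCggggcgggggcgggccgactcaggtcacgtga

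In the 3 windows together, SA1 had 8 peaks (wild type) and 0 (SA1-null), and SA2 had 0 and 1. SMC1 had 10 and 34 peaks, and SMC3 had 6 and 23. The SA1 antibody gave no peak here in the cells that lack its target, and neither of the 2 input lists had an interval in any window. The SA1-null SA1 list holds only 177 intervals over the genome, and the input lists hold 436 and 417. Their absence from windows of this size was therefore likely beforehand and says little about the antibody or the background. No member overlapped an interval of the input lists or of the SA1-null SA1 list. Peaks that overlapped by at least 1 bp were merged across the 8 lists into sites, which gave 34 sites in the windows and 58646 over the genome. The H19-Igf2 window held 10 sites, the Dlk1-Meg3 window 9 and the Igf2r window 15. Sites are numbered below by position within their window. A site rested on 1 list in 10 of 34 cases (29.4%, interval 15.1 to 47.5%), and over the genome in 40.5%, which lies inside that interval.

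**Figure D1:**
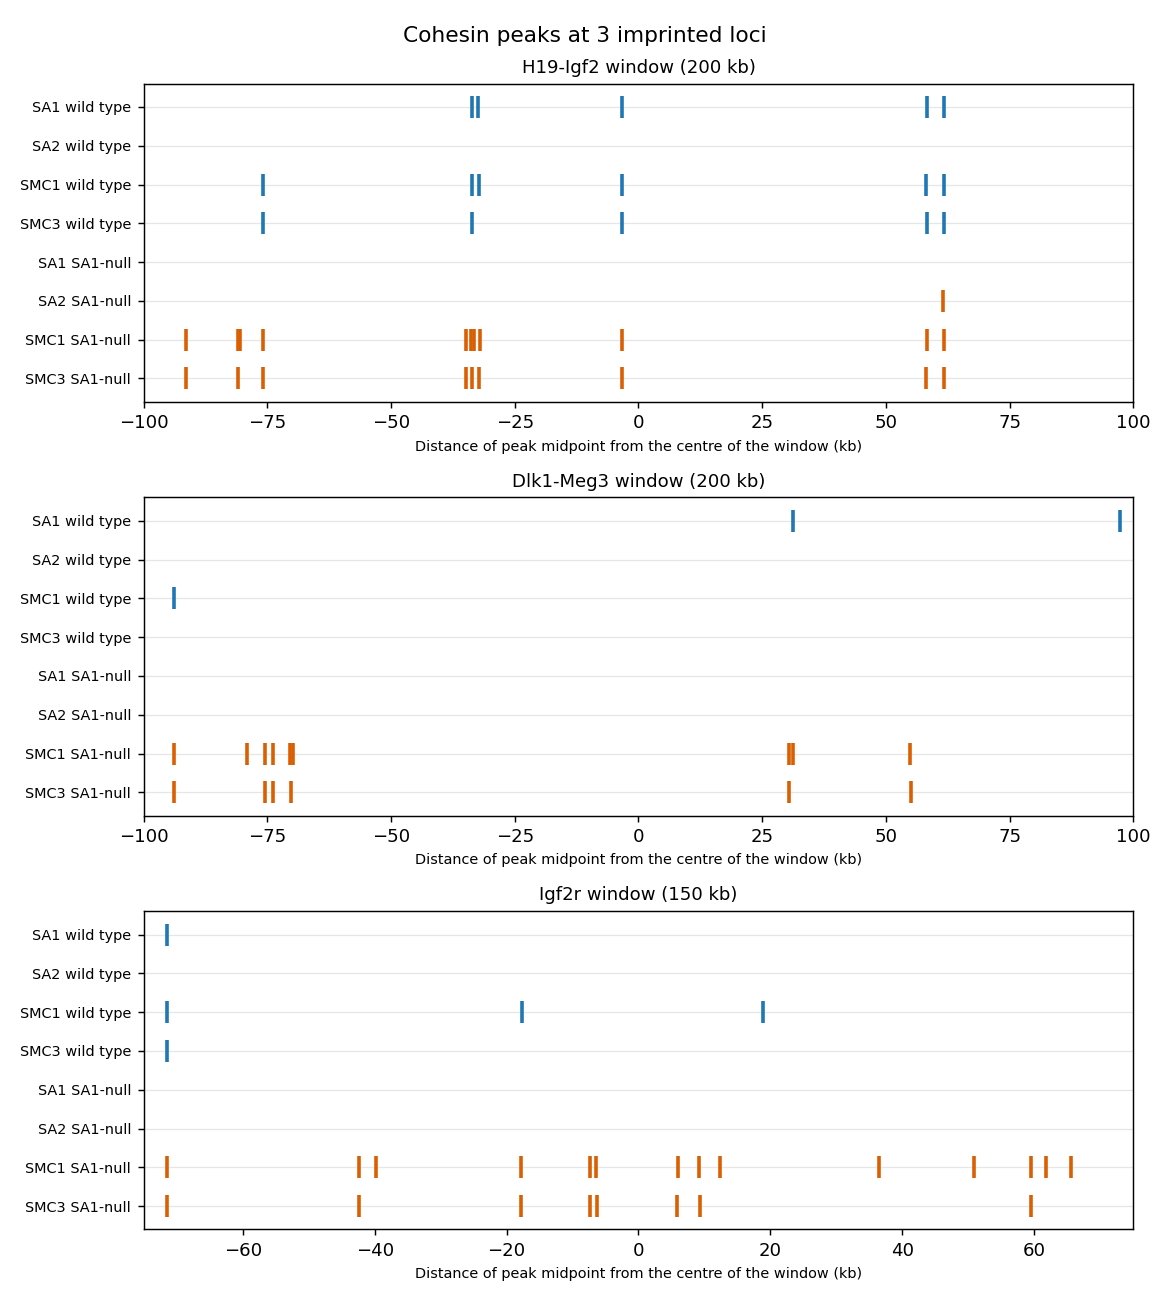
Each tick is the midpoint of 1 peak, plotted by its distance in kb from the centre of its window, with 1 row for each list (wild type in blue, SA1-null in orange). The H19-Igf2 window shows 5 wild-type SA1 peaks with ring peaks of both genotypes beneath them, whereas most SA1-null ring peaks of the Dlk1-Meg3 and Igf2r windows have no wild-type peak above them.

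The H19-Igf2 window held most of the wild-type cohesin. It carried 5 of the 8 wild-type SA1 peaks, 6 of the 10 wild-type SMC1 peaks and 5 of the 6 wild-type SMC3 peaks. All 5 SA1 peaks there overlapped a wild-type SMC1 peak, and 4 overlapped a wild-type SMC3 peak. In this window 4 sites, numbers 6, 8, 9 and 10, had SA1, SMC1 and SMC3 in wild-type cells and both ring subunits in SA1-null cells.

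Sites 6 and 7 formed a pair of SA1 peaks 501 bp apart. Site 6, at chr7:149765902-149767019, held the widest wild-type peaks of the 3 windows. Its SA1 peak was 928 bp wide, wider than 98.4% of all SA1 peaks, and its wild-type SMC1 peak was 1049 bp wide, wider than 98.4% of that list. The wild-type SMC3 peak there spanned 689 bp. In SA1-null cells the SMC3 peak spanned 1071 bp, the widest peak of the window, and SMC1 was called as 2 peaks of 553 and 547 bp. Both genotypes thus had both ring subunits over the same stretch.

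Site 7, at chr7:149767378-149768247, had an SA1 peak of 564 bp and SMC1 peaks of 627 bp (wild type) and 638 bp (SA1-null). An SMC3 peak of 844 bp was present in SA1-null cells and none in wild-type cells. The midpoints of the 4 peaks differed by up to 246 bp, the largest spread among the sites of all windows that had 1 peak for each list present. On the other side of site 6, site 5 at chr7:149764854-149765494 was called in SA1-null cells alone, with an SMC1 peak of 475 bp and an SMC3 peak of 641 bp. It lay 454 bp from the SA1 peak of site 6 and did not overlap it. SA1-null cells thus had both ring subunits at these 3 neighbouring sites. Wild-type cells had both at site 6, SMC1 without SMC3 at site 7 and neither at site 5. With lists of equal length, described further on, 0 of 7 sites of this window had both ring subunits in SA1-null cells alone.

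**Figure D2:**
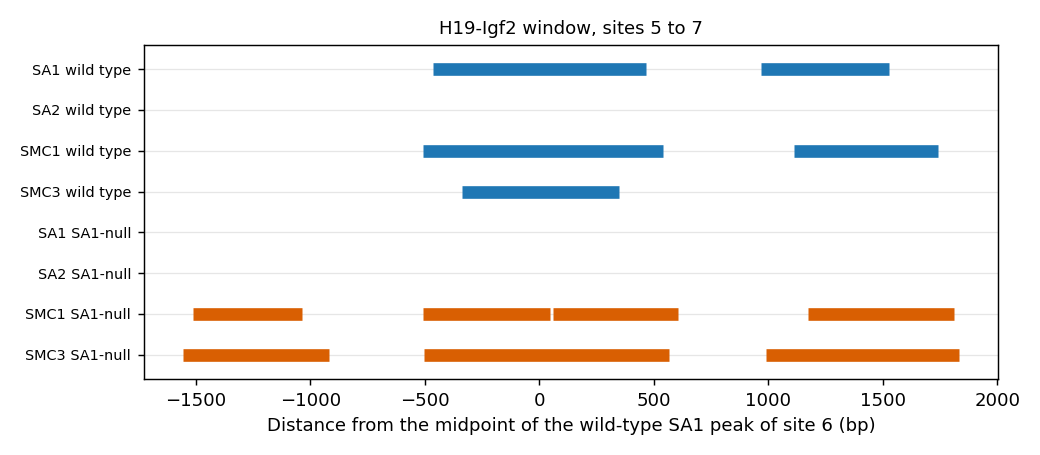
Horizontal bars show the extent of each peak of sites 5, 6 and 7 of the H19-Igf2 window, in bp from the midpoint of the wild-type SA1 peak of site 6, with 1 row for each list. Both SA1 peaks lie over ring peaks, site 5 on the left holds SA1-null peaks alone, and site 6 holds 2 SA1-null SMC1 peaks.

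Sites 8, 9 and 10 lay farther along chromosome 7. Site 8, at chr7:149796297-149796944, had a narrow SA1 peak of 316 bp, wider than 4.3% of the SA1 list, with a wild-type SMC1 peak of 648 bp and a wild-type SMC3 peak of 450 bp. In SA1-null cells its SMC1 peak spanned 459 bp and its SMC3 peak 604 bp. A stretch of 60818 bp without any peak separated it from site 9, at chr7:149857763-149858635, where SA1 spanned 444 bp. The ring peaks of site 9 were 791 bp (SMC1) and 556 bp (SMC3) wide in wild-type cells and 722 bp and 785 bp in SA1-null cells. All 3 sites had a peak of both ring subunits in both genotypes.

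Site 10, at chr7:149861332-149862110, had a peak in 6 of the 8 lists, more than any other site of the windows. It was also the position of the single SA2 peak among the 82 members, a peak of 433 bp in SA1-null cells at chr7:149861434-149861866. The SA2 peak lay within the wild-type SA1 peak of the site, which spanned 569 bp. Wild-type ring peaks there were 563 bp (SMC1) and 470 bp (SMC3) wide, and SA1-null ring peaks 448 bp and 779 bp.

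A ring site of the window had no SA1 peak in wild-type cells. Site 4, at chr7:149723729-149724401, had peaks of 499 bp (SMC1) and 609 bp (SMC3) in wild-type cells, and of 599 and 577 bp in SA1-null cells. The nearest wild-type SA1 peak was 39713 bp away, outside the window. The last site of this window, site 3, held a single SA1-null SMC1 peak of 302 bp that began 9 bp after site 2, and sites 1 and 2 are described further on.

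In the Dlk1-Meg3 window wild-type cells had 2 SA1 peaks, 1 SMC1 peak and 0 SMC3 peaks, and no 2 of these 3 peaks overlapped. The SA1 peaks were narrow, at 340 bp for site 7 (chr12:110781071-110781410) and 326 bp for site 9 (chr12:110847234-110847559). They were wider than 7.01% and 5.42% of the SA1 list. Site 7 had an SA1-null SMC1 peak of 276 bp over it, and site 9 had no peak in any other list. The wild-type SMC1 peak belonged to site 1 at chr12:110655601-110656608, where it spanned 731 bp. Site 1 was also called in SA1-null cells, with an SMC1 peak of 773 bp and an SMC3 peak of 1008 bp, the widest of the window.

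SA1-null cells gave 9 SMC1 peaks and 6 SMC3 peaks in the Dlk1-Meg3 window. At 5 sites both ring subunits were called in SA1-null cells and neither in wild-type cells. Among them, sites 3, 4 and 5 followed each other within 6135 bp, at chr12:110674298-110674826, chr12:110675845-110676303 and chr12:110679308-110680432. The others were site 6 at chr12:110780137-110780613, which lay 457 bp from the SA1 peak of site 7, and site 8 at chr12:110804791-110805171. Their SMC3 peaks were 341 to 600 bp wide, and each was wider than no more than 36.9% of the SA1-null SMC3 list. Site 2 held a single SA1-null SMC1 peak of 603 bp. Between sites 5 and 6 a stretch of 99704 bp held no peak of any list, the longest such stretch between neighbouring sites of the 3 windows.

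The Igf2r window had 1 position with SA1, SMC1 and SMC3 peaks in wild-type cells, and no SA2 peak in either genotype. Site 1, at chr17:12853190-12853911, had an SA1 peak of 618 bp, ring peaks of 688 bp (SMC1) and 492 bp (SMC3) in wild-type cells, and ring peaks of 668 and 663 bp in SA1-null cells. It lay 3190 bp from the edge of the window. Wild-type cells had 2 further peaks in the window, both of SMC1. One was part of site 4 at chr17:12906926-12907539, where it spanned 487 bp, and SA1-null cells had an SMC1 peak of 579 bp and an SMC3 peak of 530 bp there. The other, of 437 bp at chr17:12943714-12944150, was the only wild-type SMC1 peak of the 3 windows without an SA1-null SMC1 peak.

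SA1-null cells gave 14 SMC1 peaks and 8 SMC3 peaks in the Igf2r window. At 6 of its sites both ring subunits were called in SA1-null cells and neither in wild-type cells. The broadest were sites 5 and 6, at chr17:12917006-12918186 and chr17:12918189-12919215, which were 2 bp apart. Their SMC3 peaks spanned 1181 bp, the widest of all members, and 986 bp, and were wider than 96.6% and 93.0% of that list. The SMC1 peaks there spanned 854 and 614 bp. The other 4 were site 2 at chr17:12882442-12882898, site 7 at chr17:12930577-12931286, site 8 at chr17:12933933-12934584 and site 13 at chr17:12984194-12984865, with SMC3 peaks of 457 to 674 bp. A further 6 of the 15 sites had an SA1-null SMC1 peak and nothing else (40.0%, interval 16.3 to 67.7%), against 22.0% of all sites of the genome, which lies inside the interval. In the 3 windows together there were 8 such sites of 34 (23.5%).

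**Figure D3:**
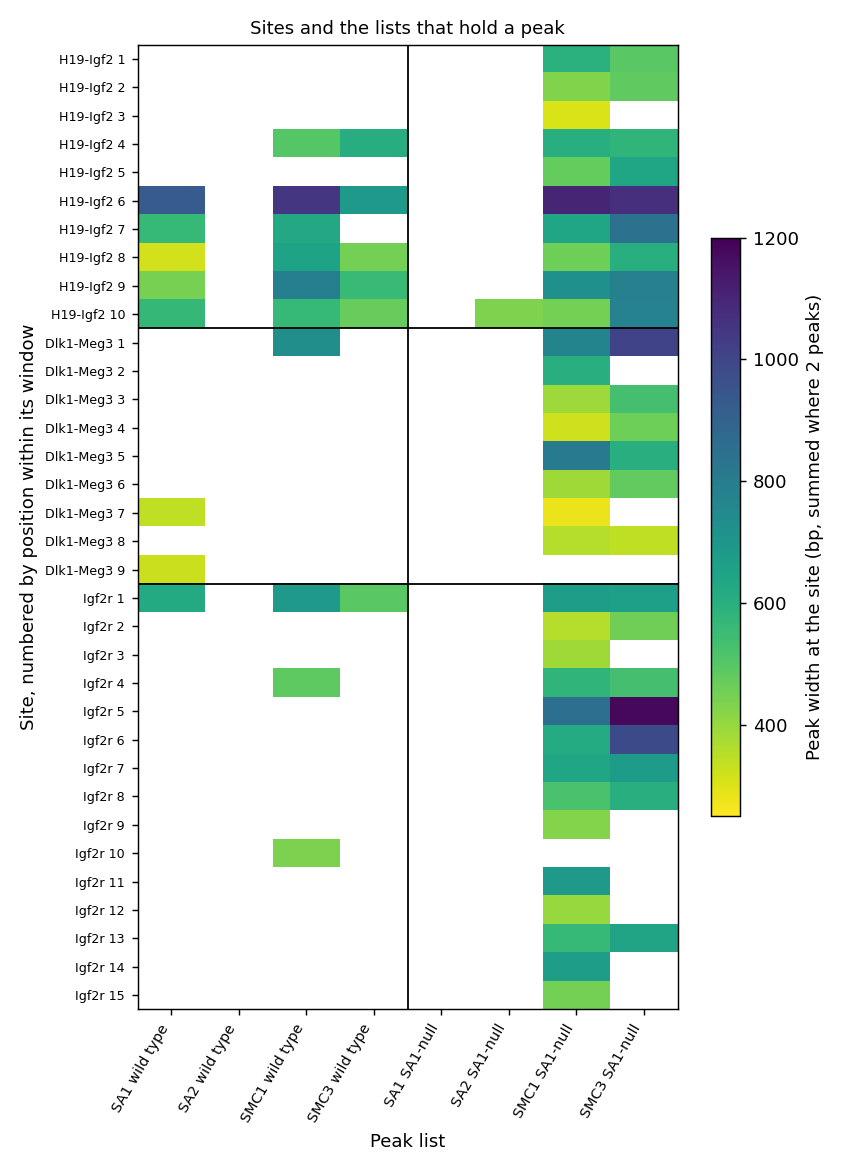
Rows are the 34 sites in order of position within each window, columns are the 8 lists (wild type left of the line, SA1-null right), and colour gives the peak width in bp; white marks the lack of a peak. The SA2 columns and the SA1-null SA1 column are empty but for site 10 of H19-Igf2, and the 14 sites with SA1-null ring peaks alone are spread over all 3 windows.

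Read against the genome, the wild-type ring peaks of the windows were found again in SA1-null cells about as often as elsewhere. Of 10 wild-type SMC1 peaks, 9 had an SA1-null partner of the same antibody (90.0%, interval 55.5 to 99.7%), against 93.4% of all 24000. Of 6 wild-type SMC3 peaks, 6 did (100%, interval 54.1 to 100%), against 96.7% of all 15564. Both shares depended on list length. Lists of equal length, described further on, can only lower them, because of the ring lists only the SA1-null ones are shortened. Then 7 of 10 wild-type SMC1 peaks had a partner (70.0%, interval 34.8 to 93.3%), against 61.4% over the genome. For wild-type SMC3 it was 3 of 6 (50%, interval 11.8 to 88.2%), against 59.5%. Among peaks of at least the median width of their list, 5 of 6 wild-type SMC1 peaks had a partner, against 78.2% over the genome. For wild-type SMC3 it was 1 of 2, against 79.9%. The reverse shares were lower than those of the genome. A wild-type SMC1 peak was present at 10 of 34 SA1-null SMC1 peaks (29.4%, interval 15.1 to 47.5%), against 47.8%, just above that interval. A wild-type SMC3 peak was present at 6 of 23 SA1-null SMC3 peaks (26.1%, interval 10.2 to 48.4%), against 43.1%, which the interval includes.

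The 8 SA1 positions carried the other subunits at shares that these few peaks could not set apart from the genome. In wild-type cells 6 of 8 overlapped an SMC1 peak (75.0%, interval 34.9 to 96.8%), against 65.6%, and 5 of 8 an SMC3 peak (62.5%, interval 24.5 to 91.5%), against 50.1%. In SA1-null cells 7 overlapped an SMC1 peak and 6 an SMC3 peak, 87.5% and 75.0%, against 80.4% and 75.7%. SA2 was called at 0 of 8 in wild-type cells (upper bound 36.9%), against 20.1%, and at 1 of 8 in SA1-null cells (interval 0.316 to 52.7%), against 21.6%. The wild-type SA2 list had a mean of 0.586 peaks per 200 kb over the genome, and a count of 0 in a window has an upper Poisson bound of 3.69.

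Among the 34 sites, SA1 was present in wild-type cells at 8 (23.5%, interval 10.7 to 41.2%), against 44.9% of all sites, which lies above the interval. This share depends on how many sites SA1-null peaks add and on where the windows end. With each window widened by 50 kb, SA1 was present at 15 of 47 sites, and no interval was computed for that share. SA1-null SMC1 was present at 94.1% of the 34 sites, against 78.9% of all sites. By count SA1 was not scarce, with 5, 2 and 1 peaks at H19-Igf2, Dlk1-Meg3 and Igf2r. The genome means for windows of those lengths were 2.02, 2.02 and 1.51. Both ring subunits in both genotypes were called at 6 sites (17.6%, interval 6.76 to 34.5%), against 24.4%. Of those 6, 5 were in the H19-Igf2 window and the other was site 1 of Igf2r. All but site 4 of H19-Igf2 had SA1 (83.3%, interval 35.9 to 99.6%), against 89.1% of the 14281 such sites of the genome, which lies inside the interval. No site had both ring subunits in wild-type cells and neither in SA1-null cells (upper bound 10.3%), against 0.0836% of all sites.

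At 14 of the 34 sites SA1-null cells had both ring subunits and wild-type cells neither (41.2%, interval 24.6 to 59.3%), against 15.4% of all sites, which lies below the interval. Several of the 14 were close neighbours, such as sites 5 and 6 of Igf2r at 2 bp apart, so this interval is likely too narrow. The 3 in the H19-Igf2 window were site 5 and, farther off, sites 1 and 2 at chr7:149708156-149708748 and chr7:149718771-149719336. Site 2 ended 45517 bp before site 5. None of the 14 overlapped a wild-type SA1 peak (upper bound 23.2%), against 26.3% of the 9046 such sites of the genome. Among them, site 5 of H19-Igf2 and site 6 of Dlk1-Meg3 lay within 1000 bp of one, and the median distance was 34619.5 bp. None had an SA1-null SA2 peak either, as at all but 1.81% of such sites genome-wide. Their SA1-null peaks differed in width between the windows. None of the 6 SMC1 and 5 SMC3 peaks of these sites at Dlk1-Meg3 was wider than the median of its list, whereas 4 of 6 SMC1 and 3 of 6 SMC3 peaks at Igf2r were. At H19-Igf2 1 of 3 SMC1 and 0 of 3 SMC3 peaks were. Of the peaks at all such sites of the genome, 49.9% (SMC1) and 38.9% (SMC3) were wider than those medians. Over the 3 windows, the median SMC1 peak spanned 431 bp and was wider than 26.0% of the list, against 553 bp and 54.1% at the 6 sites with the ring in both genotypes. The median SMC3 peak spanned 564.5 bp, against 721 bp at those 6 sites. Over the genome the same classes had medians of 535 and 614 bp for SMC1 and of 610 and 713 bp for SMC3.

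Fewer sites were called in SA1-null cells alone when the lists had equal length. When the longer list of each antibody was shortened to the length of the shorter one by keeping its widest peaks, 3 such sites were left of 20 (15.0%, interval 3.21 to 37.9%), against 5.78% of all sites, which lies inside the interval. All 3 were in the Igf2r window, and 1 site of H19-Igf2 then had both ring subunits in wild-type cells and neither in SA1-null cells (1 of 20, 5.0%), against 5.96% of all sites. Of the ring lists only the SA1-null ones were shortened. Fewer sites with the ring in SA1-null cells alone, and more with it in wild-type cells alone, were therefore largely built in. Peak numbers in the H19-Igf2 window were then 6 and 6 for SMC1 and 5 and 4 for SMC3, wild type first. In the Igf2r window they were 3 and 8 for SMC1 and 1 and 3 for SMC3, and in the Dlk1-Meg3 window 1 and 2 for SMC1 and 0 and 1 for SMC3.

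With the lists at full length, the 3 windows held 34 SMC1 peaks in SA1-null and 10 in wild-type cells, a ratio of 3.4 (interval 1.64 to 7.72). For SMC3 the counts were 23 and 6, a ratio of 3.83 (interval 1.52 to 11.5). Both intervals include the genome's ratios of 1.96 and 2.24. By window, SMC1 went from 6 to 11 peaks at H19-Igf2 (ratio 1.83, interval 0.621 to 6.04), from 1 to 9 at Dlk1-Meg3 and from 3 to 14 at Igf2r (ratio 4.67, interval 1.3 to 25.3). SMC3 went from 5 to 9 at H19-Igf2 (ratio 1.8, interval 0.542 to 6.84), from 0 to 6 at Dlk1-Meg3 and from 1 to 8 at Igf2r. The intervals of the windows overlapped, and the difference between windows was not tested.

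Set beside all windows of the same length that tile the genome, the H19-Igf2 window held more SA1, SMC1 and SMC3 peaks than the mean in wild-type cells, and 0 SA2 peaks against a mean of 0.586. At least 5 wild-type SA1 peaks were present in 13.2% of 13199 tiles of 200 kb, at least 6 wild-type SMC1 peaks in 7.52% and at least 5 wild-type SMC3 peaks in 4.42%. The genome means per tile were 2.02, 1.82 and 1.18 peaks. In SA1-null cells its 11 SMC1 peaks stood against a mean of 3.56 and were reached by 7.42% of tiles, and its 9 SMC3 peaks against 2.64 and by 5.65%, so the window was above the mean to a similar degree in both genotypes. The Dlk1-Meg3 window matched the SA1 mean with 2 peaks and was below the other means with 1 SMC1 peak and none of SMC3. Its 9 SMC1 and 6 SMC3 peaks of SA1-null cells were reached by 12.6% and 17.0% of tiles. The Igf2r window, at 150 kb, had 1 wild-type SA1 peak against a mean of 1.51 and 1 SMC3 peak against 0.885. Its 3 wild-type SMC1 peaks were above the mean of 1.36, and 21.8% of tiles had as many. Its 14 SA1-null SMC1 peaks stood against a mean of 2.67 and were reached by 1.04% of 17593 tiles, and its 8 SMC3 peaks by 4.0%.

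**Figure D4:**
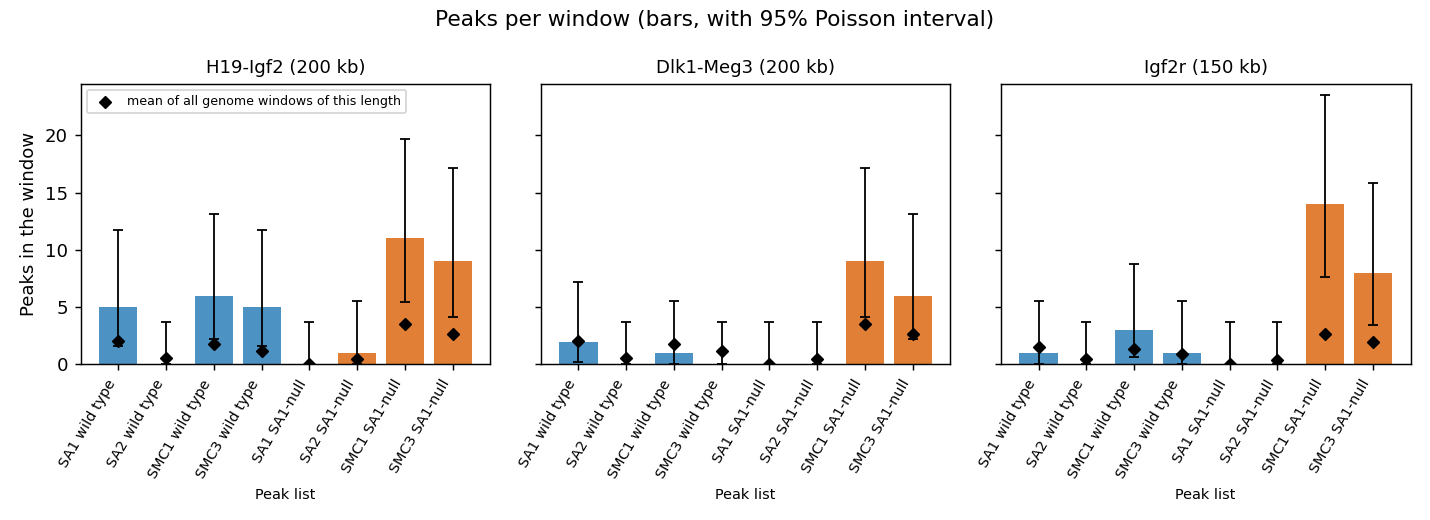
Bars give the number of peaks of each list in each window (wild type in blue, SA1-null in orange) with exact 95% Poisson intervals, and diamonds give the mean over all genome windows of the same length. At H19-Igf2 the SA1, SMC1 and SMC3 bars of wild-type cells and the SMC1 and SMC3 bars of SA1-null cells stand above the diamonds, and the bar of SA1-null SMC1 at Igf2r, at 14 peaks against a mean of 2.67, is the tallest.

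At sites with 1 peak of a ring subunit in each genotype, the midpoints of the peaks lay close together. Because sites are defined by overlap, this was partly built in, and no genome-wide offset is set beside it. For SMC1, the midpoints differed by 7 to 76.5 bp (median 55.25 bp) at the 8 shared sites with 1 peak in each genotype. For SMC3 they differed by 12 to 97.5 bp (median 27.75 bp) at 6 sites. The SA1-null SMC3 peak was the wider one at 5 of 6 sites, by 154 to 382 bp, and narrower, with a difference of -32 bp, at site 4 of H19-Igf2. Over the genome the SA1-null SMC3 peak was the wider one at 87.2% of 14728 such sites. The whole SA1-null SMC3 list was wider too, with a median of 652 bp against 563 bp. SMC1 peaks were wider in SA1-null cells at 4 of the 8 sites with 1 peak in each genotype and narrower at 4, against 51.9% wider of 21577 such sites of the genome, and their whole-list medians were 535 bp in SA1-null and 579 bp in wild-type cells. The 4 narrower ones were sites 8, 9 and 10 of H19-Igf2 and site 1 of Igf2r, with differences of -189, -69, -115 and -20 bp (SA1-null minus wild type). At the same 4 sites the SMC3 peak was wider in SA1-null cells, by 154, 229, 309 and 171 bp.

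**Figure D5:**
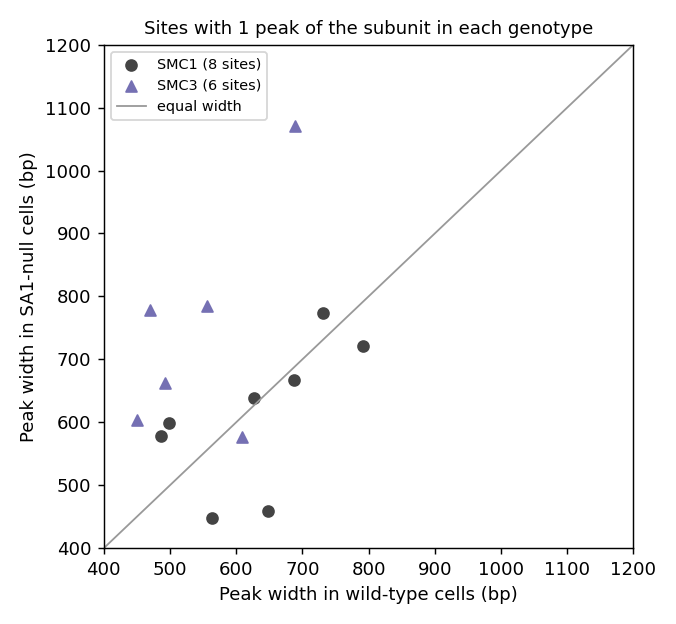
Each point is a site with 1 peak of the same ring subunit in each genotype, with its width in wild-type cells on the horizontal and in SA1-null cells on the vertical axis, in bp. SMC3 (triangles) lies above the line of equal width at 5 of 6 sites, and SMC1 (circles) lies above it at 4 of 8 sites.

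Peaks of the ring subunits also overlapped within a genotype, as they mostly did over the genome. All 6 wild-type SMC3 peaks overlapped a wild-type SMC1 peak (interval 54.1 to 100%), against 93.7% genome-wide, and all 23 SA1-null SMC3 peaks did so with the SMC1 list of their genotype (interval 85.2 to 100%), against 88.8% of that list over the genome. Of the 34 SA1-null SMC1 peaks, 25 overlapped an SMC3 peak (73.5%, interval 55.6 to 87.1%), against 66.6%. The 9 without one were spread as 1 in the H19-Igf2 window, 2 in the Dlk1-Meg3 window and 6 in the Igf2r window.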

How the data were processed

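Each deposited list has 3 columns (chromosome, start, end) and no score. The submitters' processing notes name the build mm9 and the software CASAVA 1.7. No aligner or peak caller is given in the sources used here, while the deposited names give a false discovery rate of 10 and the input used, one for wild-type SA1 and for SA2 and another for SMC1, SMC3 and SA1-null SA1. On chromosome 7 the intervals run beyond the last gene of GRCm38.p6, so they are unlikely to be on that build, though the end of the chromosome itself was not compared. Positions are printed 1-based, on the reading that deposited starts count from 0.

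Windows were applied to the intervals, and overlap (at least 1 bp), merging and exact binomial or Poisson intervals were computed with Python 3.11.15, numpy 2.4.6, pandas 2.3.3 and scipy 1.17.1. The overlap and merging functions were tested on simulated data and against bedtools 2.31.1. Whole-genome shares came from the same lists. Samples were grouped by title. The members, the lists and the alternatives were chosen with earlier results of these data known. Sites named by coordinates were those in 5 or more lists, those with both ring subunits in 1 genotype and neither in the other, those with SA2 in 1 genotype, and the site of the widest peak of each window. Sites 4 and 7 of H19-Igf2, sites 7 and 9 of Dlk1-Meg3 and sites 4 and 10 of Igf2r were added after their values were seen. In all, 8 partial forms of the CTCF core were searched, and AGGNGGC was kept after their matches were seen. Ranking by score was replaced by width, since the lists hold no score.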

Additional observations from a re-analysis of the deposited data

How the results depend on the processing

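No interval in the windows overlapped the input or SA1-null SA1 lists, so leaving those out could not change a window count and says nothing about stability. Joining sites closer than 1000 bp and asking shared peaks to overlap by 50% of the shorter one kept all counts within 1.5 times. Keeping the peaks of at least median width in each list, a stand-in for a stricter threshold, left 19 of 37 peaks at H19-Igf2, 4 of 18 at Dlk1-Meg3 and 14 of 27 at Igf2r, and 17 of 34 sites. It left 4 sites with SA1, 0 with SA2 and 3 with SMC1 and SMC3 in SA1-null cells alone, and 50% of wild-type SMC3 peaks then had an SA1-null partner. Fewer peaks enter by construction. Widening each window by 50 kb gave 62 peaks at H19-Igf2 and 47 sites in all, 15 of them with SA1 and 3 with SA2. Peak numbers in SA1-null against wild-type cells gave ratios of 2.67 (SMC1) and 4.5 (SMC3) among peaks of at least median width. In the widened windows the ratios were 2.88 and 3.44. With lists of equal length by width they were 1.6 (SMC1) and 1.33 (SMC3). Under that setting 3 sites had SMC1 and SMC3 in SA1-null cells alone, and 70% of wild-type SMC1 and 50% of wild-type SMC3 peaks had a partner. Of the ring lists only the SA1-null ones are shortened there, so lower values were largely built in. Depth is unknown and limits every statement on a missing peak. No paired analysis was possible because each group has 1 list.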
